A study of Sus scrofa with 2 samples.

Results

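Endothelial cells with transcripts of ACKR1 or MMRN1 were taken from 2 single-cell libraries of the longissimus dorsi, the long back muscle, of piglets. The GDSS library is named for the Guangdong small-eared spotted pig and the second library for Yorkshire, breeds that differ in intramuscular fat per the series' design text. The labels mark both libraries P0 and name no treatment. A cell barcode was chosen when it had at least 500 genes detected, at least 3 UMIs (counted RNA molecules) of ACKR1 and MMRN1 together, fewer than 2 UMIs of the macrophage gene C1QB, fewer than 3 UMIs of the mural genes RGS5 and MYH11, and fewer than 20 UMIs per 10000 of the stromal genes DCN and LUM. The rule chose 195 of 26981 deposited barcodes, 30 in GDSS and 165 in Yorkshire. They fell into 145 ACKR1-positive barcodes (22 in GDSS and 123 in Yorkshire) and 50 barcodes with MMRN1 but no ACKR1 UMI (8 in GDSS and 42 in Yorkshire), called MMRN1-only barcodes here and ACKR1-negative MMRN1-positive in the plots. They were set against 1852 other endothelial barcodes (231 in GDSS and 1621 in Yorkshire), which passed the same limits, had fewer than 3 UMIs of ACKR1 and MMRN1, and had at least 2 UMIs of the endothelial junction genes PECAM1 and CLDN5.

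Veins and postcapillary venules are the vessels through which leukocytes leave the blood, and their endothelium carries ACKR1, an atypical receptor that binds and transports chemokines. Lymphatic capillaries take up tissue fluid and migrating leukocytes. Their endothelium is specified from veins by the transcription factor PROX1 and carries the hyaluronan receptor LYVE1, the podoplanin glycoprotein PDPN, the VEGF-C receptor FLT4, the chemokine CCL21 and the secreted glycoprotein multimerin 1, made from MMRN1. In muscle both sit beside a much larger bed of capillaries that moves fatty acids into the fibres.

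Per the labels the libraries held intramuscular vascular stem cells from 1 g of muscle per piglet, after lysis of red blood cells and removal of dead cells with magnetic beads. The number of piglets per library, and whether they were pooled, is not given in the sources used here. There was 1 library per breed, so breed cannot be told apart from animal, preparation or sequencing run. The GDSS library held 42093851 UMIs in 12286 barcodes and the Yorkshire library 54300953 UMIs in 14695 barcodes. The chosen barcodes were deeper than their comparators, with a median of 5473 UMIs in GDSS and 7985 in Yorkshire, against 2852 and 3070 in other endothelial barcodes. The libraries shared 47 barcode sequences, of which 0 were chosen in both.

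The genes of the rule describe the choice and were not tested. ACKR1-positive barcodes had a median of 11.9 ACKR1 UMIs per 10000 in GDSS and 13.3 in Yorkshire, with ranges of 2.15 to 59.9 and 1.26 to 64.2. MMRN1-only barcodes had a median of 13.3 MMRN1 UMIs per 10000 in GDSS and 19.0 in Yorkshire, with ranges of 6.5 to 46.2 and 4.72 to 81.6. The genes were almost exclusive of each other, since 5 barcodes held a UMI of both and 0 held 3 or more of each. One of the 5 was a Yorkshire barcode with 2 ACKR1 and 10 MMRN1 UMIs, which the rule counted as ACKR1-positive, and the other 4 had a single MMRN1 UMI. At the threshold, 11 chosen barcodes had exactly 3 UMIs of both genes together, with median depths of 4416 UMIs in GDSS and 4047 in Yorkshire, and 25 barcodes that met the other limits had exactly 2, with median depths of 4869 and 5986 UMIs. A further 22 barcodes reached 3 UMIs and were left out, 4 by C1QB, 10 by the mural genes and 8 by the stromal genes. All but 2 chosen barcodes, both MMRN1-only ones of GDSS, had at least 2 UMIs of PECAM1 and CLDN5.

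**Figure D1:**
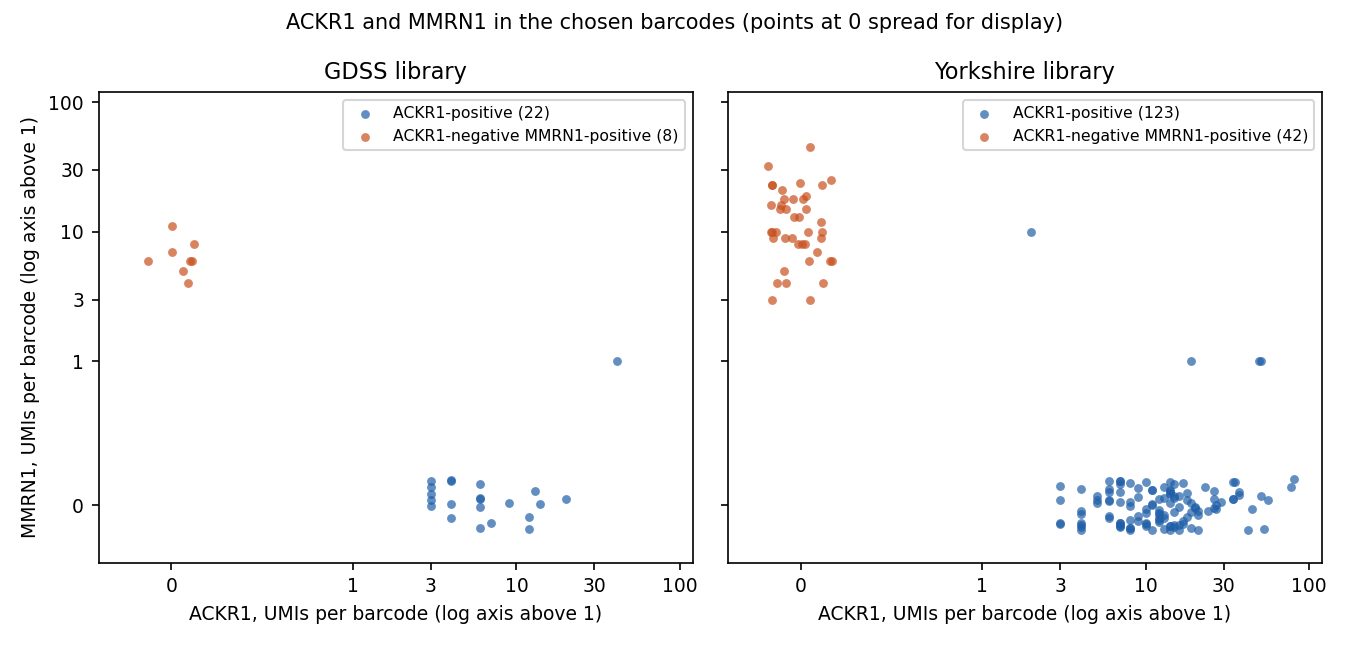
Raw UMIs of ACKR1 (horizontal) and MMRN1 (vertical) in each chosen barcode, on axes that are logarithmic above 1, with GDSS on the left and Yorkshire on the right; points at 0 are spread for display. The 145 ACKR1-positive barcodes lie along the bottom and the 50 MMRN1-only barcodes along the left edge, with 5 barcodes that hold both genes.

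The 2 kinds of barcode also differed in lymphatic and venous genes outside the rule, some of them picked as markers from these libraries. All 50 MMRN1-only barcodes had a UMI of at least 2 of the lymphatic genes LYVE1, PROX1, PDPN, FLT4, CCL21 and RELN, whereas 3 of 145 ACKR1-positive barcodes did and 119 had none. Of the venous genes PLVAP, PLAT, STC1 and SELP, 142 of 145 ACKR1-positive barcodes had at least 2, against 4 of 50 MMRN1-only barcodes. Among those 4, a Yorkshire barcode held 6 PLVAP, 6 PLAT and 5 STC1 UMIs. It had 3 UMIs of FLT4 and 2 of RELN, and none of LYVE1, PROX1, PDPN or CCL21. These counts were not made in other endothelial barcodes. PLAT, ECSCR, STC1 and LYVE1 were named as markers of these cells from the same libraries, so their levels are a description and no p-value of theirs is given. LYVE1, PLAT and ECSCR still enter the counts of the lymphatic, coagulation and pan-endothelial lists, where they are no independent support. Levels are given as CPM, the UMIs of a gene per 1000000 UMIs summed over the barcodes of a class in a library.

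PLAT, which encodes tissue plasminogen activator, was at 1107 CPM in GDSS and 1233 in Yorkshire ACKR1-positive barcodes, against 106 and 155 CPM in other endothelial barcodes, and MMRN1-only barcodes held 11 and 39 UMIs of it. STC1, the secreted glycoprotein stanniocalcin 1, was at 354 CPM in GDSS and 953 in Yorkshire ACKR1-positive barcodes, 0 and 58.4 CPM in MMRN1-only barcodes, and 69.0 and 269 CPM in other endothelial barcodes. Both genes thus marked the ACKR1-positive barcodes, and all 11 PLAT UMIs of the GDSS MMRN1-only barcodes came from 1 barcode. LYVE1 was at 0 and 1.97 CPM in ACKR1-positive barcodes, 1326 and 2451 CPM in MMRN1-only barcodes, and 24.8 and 5.63 CPM in other endothelial barcodes. It was detected in 8 of 8 GDSS and 39 of 42 Yorkshire MMRN1-only barcodes. ECSCR, an endothelial surface protein, was the marker both kinds shared: it was at 442 and 601 CPM in ACKR1-positive barcodes, 695 and 655 CPM in MMRN1-only barcodes, and 189 and 244 CPM in other endothelial barcodes.

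**Figure D2:**
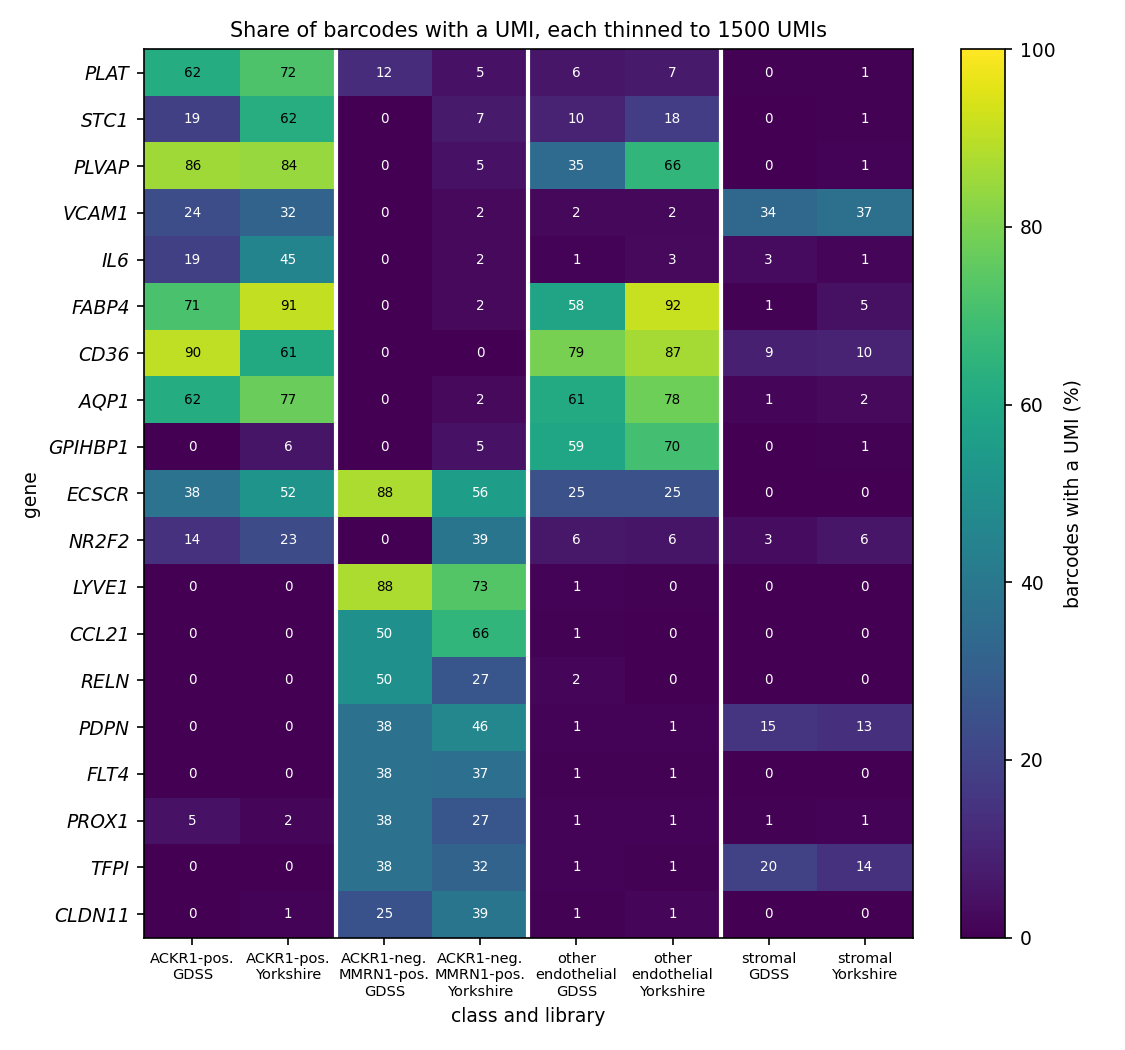
Percentage of barcodes with at least 1 UMI of 19 genes after every barcode was thinned to 1500 UMIs, by class and library (GDSS left of Yorkshire within each class); brighter cells mean a larger share, and stromal barcodes show the level in cells without endothelial genes. PLAT was detected in 61.9% of GDSS and 72.1% of Yorkshire ACKR1-positive barcodes and LYVE1 in 87.5% and 73.2% of MMRN1-only barcodes, while VCAM1, PDPN and TFPI were also detected in stromal barcodes.

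The first comparison asked what sets the chosen barcodes apart from the rest of the muscle endothelium, with UMIs summed per class and library and edgeR's quasi-likelihood test with the library as a block. Most venous and lymphatic genes were higher in the chosen barcodes, most capillary and arterial genes were lower, and cytokines went both ways. Of 9808 genes tested, 446 were called higher (4.55%) and 519 lower (5.29%) at a Benjamini-Hochberg adjusted p under 0.05, 9.84% in all, with a median log2 ratio of -0.05 over all genes. Called higher were 8 of 12 venous genes (median log2 ratio 0.93) and 9 of 11 lymphatic genes (median 2.43), and 1 venous gene was called lower. The lymphatic count includes the marker LYVE1. Called lower were 10 of 13 capillary genes (median -1.75) and 7 of 11 arterial genes (median -1.64), with 0 called higher in either list. Of 13 chemokine and cytokine genes, 8 were called higher and 4 lower (median 1.94), and their summed level was 4421 CPM in GDSS and 4074 in Yorkshire chosen barcodes, against 5690 and 3062 CPM in other endothelial barcodes. The p-values weigh the class difference against its variation between these 2 libraries, which are of different breeds. That variation is estimated partly from all genes together, not from each gene alone. A gene can thus be called although its 2 libraries go opposite ways, as CRYAB, BMP6 and CA4 were between the kinds. The library block takes out differences in level between the libraries themselves. Call counts depended on the test: DESeq2 called 111 genes higher and 107 lower, and the fit without the library block 22 and 14. Only ratios are left when either library is taken out.

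Because the 145 ACKR1-positive barcodes outnumber the 50 MMRN1-only ones, the pooled ratios mix unlike cells, and each kind was also compared with the other endothelial barcodes by the same test. ACKR1-positive barcodes had 428 genes called higher (4.41%) and 461 called lower (4.76%) of 9695. MMRN1-only barcodes had 226 called higher (2.38%) and 375 called lower (3.95%) of 9496. Both of these fits used edgeR with the library block only. DESeq2 and the fit without the block were not run on them, so their calls have no such check. The kinds were also tested directly against each other: 565 of 5976 genes were called higher (9.45%) and 328 lower (5.49%) in ACKR1-positive than in MMRN1-only barcodes, 14.9% in all, with a median log2 ratio of 0.05 over all genes. These 3 comparisons share barcodes, so their values are given side by side for each group of genes. With DESeq2 the calls between the kinds ended for 28 of 83 named genes, among them VWF, CCL21, MRC1, CYSLTR2, ADGRL4, ADGRG6, NOS3, VEGFC, HRH1, SCG3, MYF5, TAP1 and TOP2A.

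**Figure D3:**
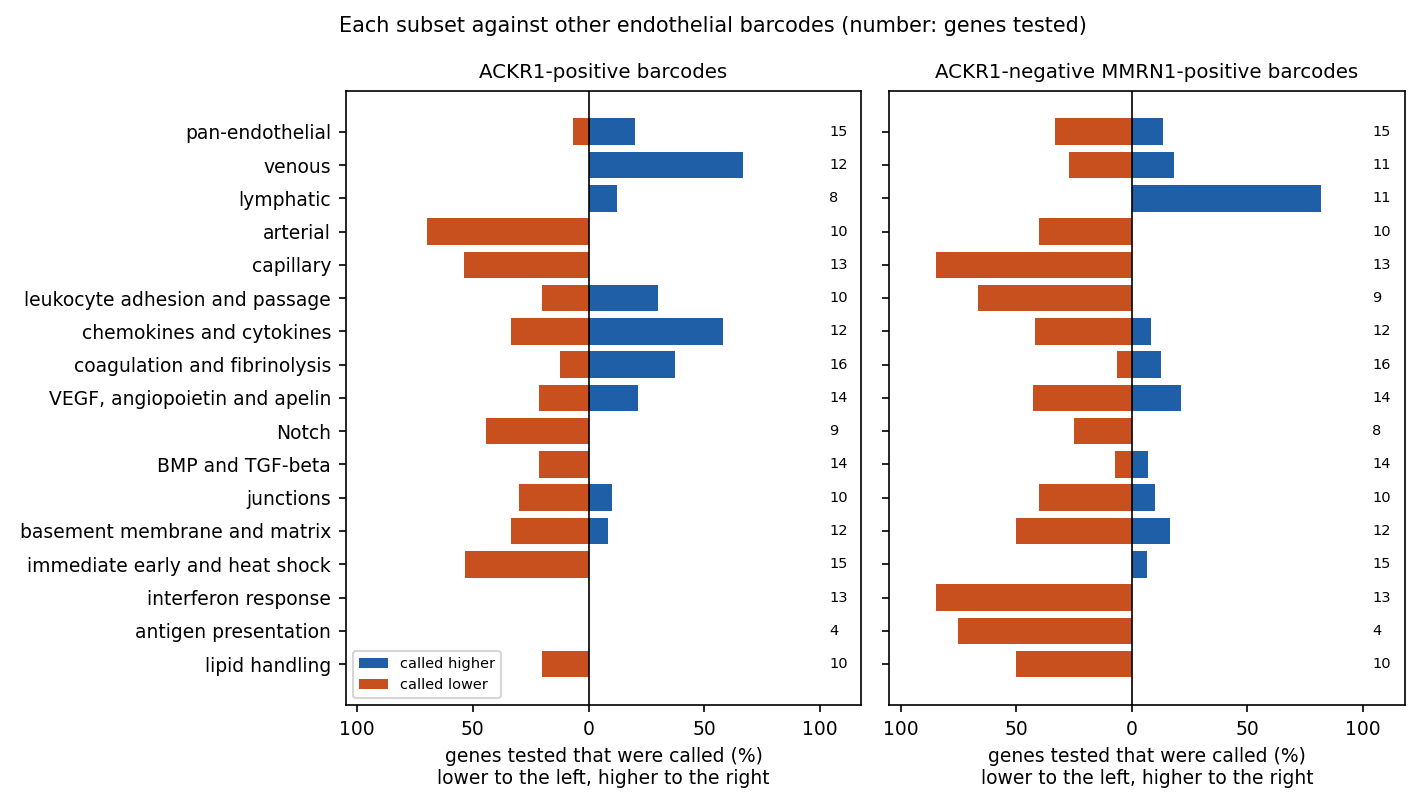
Percentage of the tested genes of 17 lists that were called higher (to the right) or lower (to the left) than in other endothelial barcodes, for ACKR1-positive (left panel) and MMRN1-only barcodes (right panel); numbers give the genes tested. Of the venous list 8 of 12 genes were called higher in ACKR1-positive barcodes, of the lymphatic list 9 of 11 in MMRN1-only barcodes, and of the interferon list 11 of 13 were called lower in MMRN1-only barcodes and 0 in ACKR1-positive ones.

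Among transcription factors and receptors that set venous identity, NR2F2 was high in both kinds. This nuclear receptor, which represses arterial fate, was at 199 CPM in GDSS and 179 in Yorkshire ACKR1-positive barcodes, 189 and 366 CPM in MMRN1-only barcodes, and 48.5 and 56.7 CPM in other endothelial barcodes. NR2F2 was called higher by edgeR in both kinds than in other endothelial barcodes (log2 ratio 1.86 ± 0.28, adjusted p = 1.6e-09, and 2.11 ± 0.42, adjusted p = 2.9e-05). Here and throughout, ± is the standard error. Between the kinds NR2F2 was not called (log2 ratio -0.47 ± 0.33, edgeR adjusted p = 0.46). The ephrin receptor EPHB4 was at 58.2 and 25.0 CPM in ACKR1-positive barcodes, 147 and 36.9 CPM in MMRN1-only barcodes, and 24.8 and 21.3 CPM in other endothelial barcodes, and was called in none of these comparisons.

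Genes for leukocyte capture and passage separated the kinds. VCAM1, the ligand for leukocyte integrins, was at 354 CPM in GDSS and 381 in Yorkshire ACKR1-positive barcodes, at 0 and 6.15 CPM (0 and 2 UMIs) in MMRN1-only barcodes, and at 20.5 and 31.7 CPM in other endothelial barcodes. VCAM1 was higher in ACKR1-positive than in other endothelial barcodes by a log2 ratio of 3.84 ± 0.30 (edgeR adjusted p = 6.4e-33), and it was 70.4-fold higher than in MMRN1-only barcodes with a 95% counting interval of 19.4 to 583. Stromal barcodes also held VCAM1, at 311 and 334 CPM. ICAM1, a second integrin ligand, was at 922 and 517 CPM in ACKR1-positive barcodes, 126 and 160 CPM in MMRN1-only barcodes, and 308 and 259 CPM in other endothelial barcodes, and was called higher in ACKR1-positive barcodes than in either (log2 ratios 2.30 ± 0.33 and 1.31 ± 0.27, edgeR adjusted p = 1.6e-10 and 3.7e-05). SELP, the P-selectin that starts leukocyte rolling, had 2 and 40 UMIs in ACKR1-positive barcodes, 0 and 0 in MMRN1-only barcodes, and 0 and 12 in other endothelial barcodes. It was called higher in ACKR1-positive than in other endothelial barcodes (log2 ratio 4.08 ± 0.64, edgeR adjusted p = 2.2e-08) and was at least 3.02-fold higher than in MMRN1-only barcodes. Here and in every fold written with "at least", a count of 0 was set to 3 UMIs over both libraries. Of the leukocyte adhesion list, 6 of 8 genes were called higher in ACKR1-positive than in MMRN1-only barcodes (median log2 ratio 3.93, or 2.74 with genes at 0 set to their bound), and 6 of 9 were called lower in MMRN1-only than in other endothelial barcodes. ACKR1-positive over other endothelial barcodes gave 3 of 10 higher and 2 lower, with a median of 0.11. All chosen barcodes together gave 3 higher and 4 lower, with a median of -0.24; CD44 and MCAM were among those lower.

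Other venous genes followed the ACKR1-positive barcodes. PLVAP, which forms the diaphragms of fenestrae and caveolae, was at 1534 CPM in GDSS and 1474 in Yorkshire ACKR1-positive barcodes, 0 and 33.8 CPM in MMRN1-only barcodes, and 397 and 1081 CPM in other endothelial barcodes. The log2 ratio of PLVAP was 5.99 ± 0.37 against MMRN1-only barcodes (edgeR adjusted p = 9.4e-54) and 1.21 ± 0.27 against other endothelial barcodes (adjusted p = 0.00026). VWF, the platelet-binding von Willebrand factor, was at 306 and 198 CPM in ACKR1-positive barcodes, 168 and 27.7 CPM in MMRN1-only barcodes, and 119 and 115 CPM in other endothelial barcodes. VWF was called higher in ACKR1-positive barcodes than in either (log2 ratios 2.32 ± 0.41 and 1.09 ± 0.27, edgeR adjusted p = 3.1e-07 and 0.0012), although the first call was lost with DESeq2 and after thinning. IL1R1, the interleukin 1 receptor, was at 170 and 293 CPM in ACKR1-positive barcodes, 21 and 12.3 CPM in MMRN1-only barcodes, and 34.5 and 56.0 CPM in other endothelial barcodes, with log2 ratios of 4.57 ± 0.53 and 2.42 ± 0.29 (edgeR adjusted p = 9.2e-16 and 7.1e-15). The venous list as a whole had 7 of 11 genes called higher and 1 lower in ACKR1-positive than in MMRN1-only barcodes (median log2 ratio 2.32, or 2.30 with bounds). The gene called lower was NRP2, a semaphorin and VEGF-C co-receptor shared with lymphatic vessels, at 72.8 and 67.7 CPM in ACKR1-positive barcodes and 105 and 261 CPM in MMRN1-only barcodes (log2 ratio -1.43 ± 0.34, edgeR adjusted p = 0.0003).

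The lymphatic list gave the sharpest contrast: 9 of 10 genes were called lower in ACKR1-positive than in MMRN1-only barcodes, with a median log2 ratio of -5.96 (-5.83 with bounds), and 0 were called higher. The list holds LYVE1, which was picked as a marker from these libraries. PROX1, the master regulator of lymphatic identity, was at 4.85 CPM in GDSS and 15.1 in Yorkshire ACKR1-positive barcodes and at 84.2 and 292 CPM in MMRN1-only barcodes, against 23.7 and 15.1 CPM in other endothelial barcodes. Its log2 ratio was -3.98 ± 0.42 between the kinds (edgeR adjusted p = 6e-19) and 3.29 ± 0.50 in MMRN1-only over other endothelial barcodes (adjusted p = 3.2e-09). PROX1 was detected in 3 of 8 GDSS and 28 of 42 Yorkshire MMRN1-only barcodes. CCL21, which draws dendritic cells and lymphocytes into lymphatics through CCR7, had 0 UMIs in ACKR1-positive barcodes and 15 and 230 UMIs in MMRN1-only barcodes, so it was at least 379-fold higher in MMRN1-only barcodes. It was detected in 5 of 8 GDSS and 39 of 42 Yorkshire MMRN1-only barcodes, with a median of 4.14 and 7.19 UMIs per 10000. A count of 0 allows up to 14.6 CPM in GDSS and 1.97 in Yorkshire ACKR1-positive barcodes, and up to 63.1 and 9.22 CPM in MMRN1-only barcodes.

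Receptors and surface proteins of lymphatic vessels showed the same order. PDPN, which binds the platelet receptor CLEC2, was at 0 CPM in GDSS and 5.91 in Yorkshire ACKR1-positive barcodes and 274 and 498 CPM in MMRN1-only barcodes (log2 ratio -6.21 ± 0.46, edgeR adjusted p = 1.3e-38), and stromal barcodes held it at 138 and 133 CPM. FLT4 was at 9.71 and 1.97 CPM in ACKR1-positive barcodes and 210 and 203 CPM in MMRN1-only barcodes (log2 ratio -5.71 ± 0.56, edgeR adjusted p = 1.1e-21). RELN, the extracellular glycoprotein reelin, had 0 UMIs in ACKR1-positive barcodes and 11 and 83 UMIs in MMRN1-only barcodes, and was at least 145-fold higher in the MMRN1-only ones. The scavenger receptor STAB1 had a smaller ratio, with 48.5 and 10.5 CPM in ACKR1-positive barcodes and 274 and 111 CPM in MMRN1-only barcodes (log2 ratio -2.79 ± 0.46, edgeR adjusted p = 4.3e-08). ITGA9, an integrin of lymphatic valves, was the list's gene that was not called between the kinds (log2 ratio -0.69 ± 0.47, edgeR adjusted p = 0.43), and it was called higher than in other endothelial barcodes in both, with log2 ratios of 1.32 ± 0.38 in ACKR1-positive and 1.94 ± 0.61 in MMRN1-only barcodes. MRC1, the mannose receptor of macrophages and of some lymphatic endothelium, had 0 and 1 UMIs in ACKR1-positive barcodes and 0 and 50 UMIs in MMRN1-only barcodes. It was thus seen in 22 of 42 Yorkshire and in 0 of 8 GDSS MMRN1-only barcodes. Beside it, the Yorkshire MMRN1-only barcodes held 2 UMIs of CD14, 2 of CD68 and 1 of AIF1, and the other 5 of 9 macrophage genes were at 0.

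**Figure D4:**
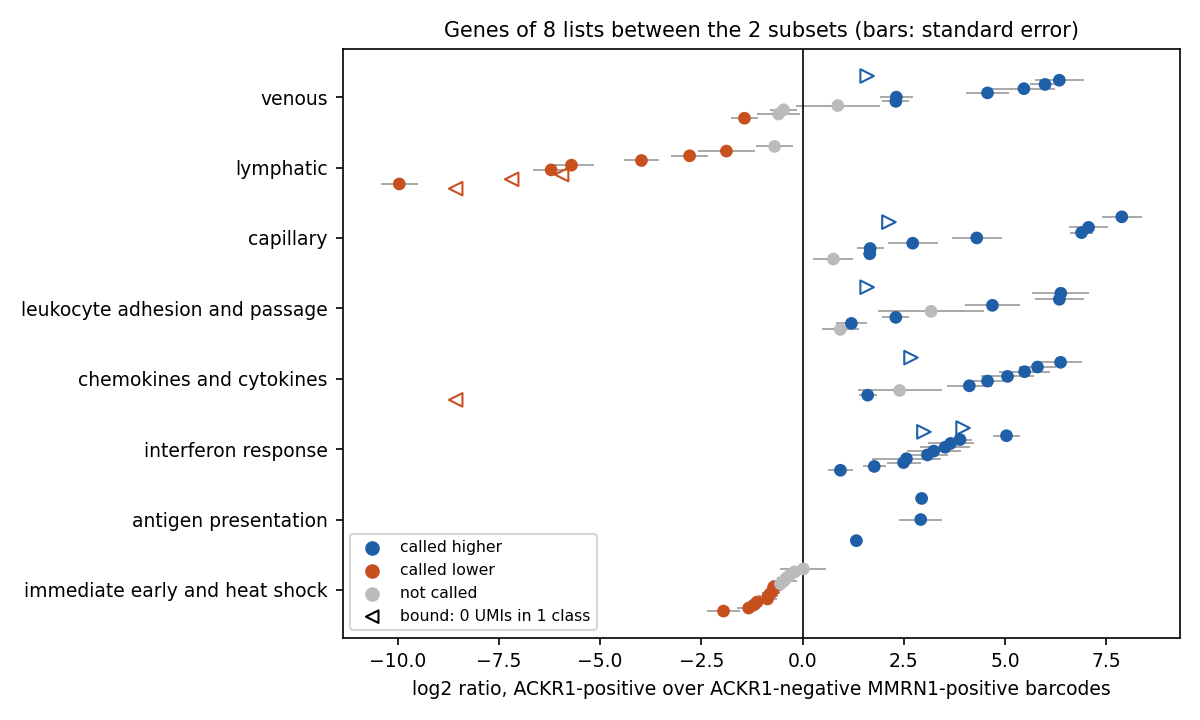
Log2 ratios of ACKR1-positive over MMRN1-only barcodes for the tested genes of 8 lists, 1 point per gene with its standard error; blue points were called higher, orange points lower and grey points not called by edgeR, and open triangles mark genes with 0 UMIs in a class, drawn at their bound. All 12 interferon genes lie to the right of 0 and 9 of 10 lymphatic genes are called on the left; CCL21 stands in the lymphatic and in the chemokine list.

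Most cytokines and chemokines were higher in ACKR1-positive than in MMRN1-only barcodes, and against other endothelial barcodes they went both ways. IL6, the interleukin 6 gene, was at 699 CPM in GDSS and 1011 in Yorkshire ACKR1-positive barcodes, 0 and 24.6 CPM in MMRN1-only barcodes, and 34.5 and 48.6 CPM in other endothelial barcodes. The log2 ratios of IL6 were 5.80 ± 0.45 against MMRN1-only barcodes (edgeR adjusted p = 2.1e-34) and 4.42 ± 0.31 against other endothelial barcodes (adjusted p = 2.5e-41). IL6 was unevenly spread over barcodes: 13 of 22 GDSS and 93 of 123 Yorkshire ACKR1-positive barcodes held a UMI, the medians were 1.65 and 3.86 UMIs per 10000, and the highest barcodes had 41.1 and 91.5. CXCL10, a chemokine for T cells, had 15 and 74 UMIs in ACKR1-positive barcodes, 0 in MMRN1-only barcodes, and 0 and 16 in other endothelial barcodes (log2 ratio over other endothelial barcodes 4.84 ± 0.49, edgeR adjusted p = 5.2e-20). IL33, an alarmin of the nucleus, was at 24.3 and 223 CPM in ACKR1-positive barcodes and 0 and 15.4 CPM in MMRN1-only barcodes, against 11.9 and 31.7 CPM in other endothelial barcodes (log2 ratio over other endothelial barcodes 2.62 ± 0.33, edgeR adjusted p = 9.7e-13).

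The eosinophil chemokine CCL26 was at 180 CPM in GDSS and 214 in Yorkshire ACKR1-positive barcodes, 0 and 6.15 CPM (0 and 2 UMIs) in MMRN1-only barcodes, and 66.9 and 32 CPM in other endothelial barcodes. It was higher in ACKR1-positive than in other endothelial barcodes (log2 ratio 2.27 ± 0.29, edgeR adjusted p = 3.8e-13). The granulocyte growth factor CSF3 was at 102 and 164 CPM in ACKR1-positive barcodes, 0 and 6.15 CPM in MMRN1-only barcodes, and 99.2 and 4.89 CPM in other endothelial barcodes, so its GDSS values in ACKR1-positive and other endothelial barcodes were close. Of the chemokine and cytokine list, 8 of 10 genes were called higher in ACKR1-positive than in MMRN1-only barcodes and 1 lower, CCL21 (median log2 ratio 4.81, or 4.34 with bounds). Against other endothelial barcodes, 7 of 12 were called higher and 4 lower in ACKR1-positive barcodes, and the list's summed level was 5048 and 4633 CPM in ACKR1-positive barcodes and 5690 and 3062 CPM in other endothelial barcodes. Those called lower included CXCL12, the ligand of CXCR4, at 38.8 and 23.0 CPM in ACKR1-positive against 93.8 and 231 CPM in other endothelial barcodes (log2 ratio -2.70 ± 0.34, edgeR adjusted p = 7.9e-13), and the neutrophil chemokine CXCL8, at 38.8 and 1.97 CPM in ACKR1-positive against 835 and 15.4 CPM in other endothelial barcodes (log2 ratio -4.06 ± 0.43, adjusted p = 4e-18). Barcodes with leukocyte genes were also unevenly spread over the classes. At least 2 UMIs of TYROBP, S100A8, S100A12 and PTPRC were held by 17 of 231 GDSS and 5 of 1621 Yorkshire other endothelial barcodes, against 1 of 30 and 0 of 165 chosen barcodes. Their part in the CXCL8 ratio was not tested.

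Some genes of clotting and of clot lysis differed between the kinds, 5 of 13 called higher and 1 lower in ACKR1-positive than in MMRN1-only barcodes and 7 not called (median log2 ratio -0.07). The marker PLAT is among those called higher. PLAU, the urokinase activator, was at 456 CPM in GDSS and 61.1 in Yorkshire ACKR1-positive barcodes, 21 and 24.6 CPM in MMRN1-only barcodes, and 73.3 and 42.2 CPM in other endothelial barcodes, and was called higher in ACKR1-positive barcodes than in either (log2 ratios 2.44 ± 0.46 and 1.55 ± 0.27, edgeR adjusted p = 2.9e-06 and 9e-07). In GDSS 1 barcode held 64 of the 94 PLAU UMIs, and 5 of 22 ACKR1-positive barcodes had any. TFPI, which inhibits the tissue factor pathway, had 2 and 1 UMIs in ACKR1-positive barcodes and 6 and 57 UMIs in MMRN1-only barcodes, a ratio of 0.0103 with a counting interval of 0.00206 to 0.0314. It was at 126 and 175 CPM in MMRN1-only barcodes, against 4.31 and 6.81 CPM in other endothelial barcodes (log2 ratio 4.43 ± 0.59, edgeR adjusted p = 1.6e-11), and stromal barcodes held TFPI at 145 and 91.4 CPM. PROCR, the endothelial protein C receptor, was called higher than in other endothelial barcodes in both kinds, with log2 ratios of 1.62 ± 0.49 in ACKR1-positive and 2.32 ± 0.73 in MMRN1-only barcodes (edgeR adjusted p = 0.016 and 0.028). MMRN2, a vascular protein related to multimerin 1, had the opposite pattern to MMRN1: it was at 262 and 263 CPM in ACKR1-positive barcodes and 0 and 3.07 CPM (0 and 1 UMI) in MMRN1-only barcodes, a 98.1-fold ratio with a counting interval of 17.5 to 3885. Coagulation factor VIII (F8) was at 67.9 and 86.7 CPM in ACKR1-positive and 126 and 98.4 CPM in MMRN1-only barcodes and was not called between them (log2 ratio -0.07 ± 0.38, edgeR adjusted p = 0.96). In the whole list of 16 genes, 6 were called higher and 2 lower in ACKR1-positive than in other endothelial barcodes, and 2 higher and 1 lower in MMRN1-only barcodes.

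ACKR1-positive barcodes kept some capillary genes and not others, although CD36 and AQP1 were below their other endothelial levels in both libraries. FABP4, which carries fatty acids in the cytosol, was at 3024 CPM in GDSS and 4718 in Yorkshire ACKR1-positive barcodes, 0 and 55.3 CPM in MMRN1-only barcodes, and 2073 and 7575 CPM in other endothelial barcodes. FABP4 was thus higher in ACKR1-positive than in other endothelial barcodes in GDSS and lower in Yorkshire. It was not called between these classes (log2 ratio -0.04 ± 0.27, edgeR adjusted p = 0.97). The log2 ratio of FABP4 in ACKR1-positive over MMRN1-only barcodes was 6.89 ± 0.29 (edgeR adjusted p = 7.9e-119). CD36, a fatty acid receptor, was at 1553 and 1030 CPM in ACKR1-positive barcodes, 0 and 6.15 CPM (0 and 2 UMIs) in MMRN1-only barcodes, and 2226 and 2619 CPM in other endothelial barcodes, and the water channel AQP1 was at 762 and 1269 CPM in ACKR1-positive barcodes, 0 and 12.3 CPM in MMRN1-only barcodes, and 1002 and 1674 CPM in other endothelial barcodes. GPIHBP1, which holds lipoprotein lipase on the capillary wall, was low in both kinds, at 34.0 and 77.5 CPM in ACKR1-positive barcodes and 21 and 55.3 CPM in MMRN1-only barcodes, against 700 and 1087 CPM in other endothelial barcodes. The log2 ratios of GPIHBP1 over other endothelial barcodes were -3.89 ± 0.32 and -4.69 ± 0.48 (edgeR adjusted p = 7.2e-30 and 1.4e-19).

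CA4, a carbonic anhydrase of the capillary surface, had 1 UMI in GDSS and 60 in Yorkshire ACKR1-positive barcodes and 0 in MMRN1-only barcodes, against 132 and 4089 UMIs in other endothelial barcodes. CA4 was therefore lower in ACKR1-positive than in other endothelial barcodes by a log2 ratio of -3.91 ± 0.36 (edgeR adjusted p = 6.7e-24) and at least 68.3-fold higher in other endothelial than in MMRN1-only barcodes. BTNL9, a butyrophilin-like surface protein, was at 34.0 and 96.6 CPM in ACKR1-positive barcodes, 0 and 18.4 CPM in MMRN1-only barcodes, and 540 and 885 CPM in other endothelial barcodes. In all, 7 of 13 capillary genes were called lower in ACKR1-positive (median log2 ratio -1.51) and 11 of 13 in MMRN1-only barcodes (median -6.02, or -4.09 with bounds), and 8 of 9 were called higher in ACKR1-positive than in MMRN1-only barcodes. CA4 is among those 8, with log2 ratios of -0.53 in GDSS, on 1 UMI, and 4.69 in Yorkshire. Median log2 ratios over all genes were -0.06 and -0.19 in the comparisons with other endothelial barcodes.

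Arterial genes were lower than in other endothelial barcodes in both kinds where they were called, and Notch genes were mixed. DLL4, a Notch ligand of arterial and sprouting endothelium, was at 19.4 CPM in GDSS and 11.8 in Yorkshire ACKR1-positive barcodes and 0 and 49.2 CPM in MMRN1-only barcodes, against 72.3 and 72.3 CPM in other endothelial barcodes. HEY1, a Notch target, was at 24.3 and 23.7 CPM in ACKR1-positive barcodes and 84.2 and 52.3 CPM in MMRN1-only barcodes, against 53.9 and 133 CPM in other endothelial barcodes. Both were called lower in ACKR1-positive than in other endothelial barcodes (log2 ratios -2.35 ± 0.37 and -2.12 ± 0.35, edgeR adjusted p = 1.2e-08 and 8.2e-08), and neither was called in MMRN1-only barcodes. SOX17, a transcription factor of arterial fate, was at 252 and 274 CPM in ACKR1-positive barcodes, 0 and 3.07 CPM (0 and 1 UMI) in MMRN1-only barcodes, and 249 and 482 CPM in other endothelial barcodes. The Notch target HES1 had the other order, with 485 and 567 CPM in ACKR1-positive barcodes and 1831 and 2475 CPM in MMRN1-only barcodes, against 805 and 1247 CPM in other endothelial barcodes (log2 ratio between the kinds -1.79 ± 0.22, edgeR adjusted p = 9.8e-14). Of the arterial list, 7 of 10 genes were called lower in ACKR1-positive and 4 of 10 in MMRN1-only barcodes than in other endothelial barcodes, and 0 were called higher. Of the Notch list, 4 of 9 genes were called lower in ACKR1-positive and 2 of 8 in MMRN1-only barcodes, and 0 were called higher.

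Interferon-response and antigen-presentation genes were low in MMRN1-only barcodes. IFI6, an interferon-induced mitochondrial protein, was at 1092 CPM in GDSS and 1971 in Yorkshire ACKR1-positive barcodes, 42.1 and 70.7 CPM in MMRN1-only barcodes, and 865 and 2082 CPM in other endothelial barcodes. All 12 interferon genes tested were called higher in ACKR1-positive than in MMRN1-only barcodes (median log2 ratio 3.38, or 3.16 with bounds), from IRF1 at 0.94 ± 0.31 to IFI6 at 5.04 ± 0.34 (edgeR adjusted p = 0.022 and 2.7e-46) among those with UMIs in both classes. Of 13 tested against other endothelial barcodes, 11 were called lower in MMRN1-only barcodes (median -3.16, or -2.99 with bounds), while 0 of 13 were called in ACKR1-positive barcodes (median 0.33). The antiviral gene MX1 was at 29.1 and 160 CPM in ACKR1-positive barcodes, 0 and 15.4 CPM in MMRN1-only barcodes, and 30.2 and 111 CPM in other endothelial barcodes.

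B2M, the light chain of class I molecules, was at 7576 CPM in GDSS and 10078 in Yorkshire ACKR1-positive barcodes, 1684 and 1144 CPM in MMRN1-only barcodes, and 7635 and 12040 CPM in other endothelial barcodes. Over single barcodes the medians of B2M were 64.4 and 96.7 UMIs per 10000 in ACKR1-positive and 14.3 and 10.3 in MMRN1-only barcodes, and the stromal level was 1021 and 891 CPM. The log2 ratio of B2M between the kinds was 2.94 ± 0.15 (edgeR adjusted p = 6.5e-76). CD74, the invariant chain of class II molecules, had the smaller log2 ratio of 1.33 ± 0.15 (edgeR adjusted p = 4.3e-16), with 5043 and 6069 CPM in ACKR1-positive barcodes and 2778 and 2491 CPM in MMRN1-only barcodes, and stromal barcodes held CD74 at 2500 and 2681 CPM. Class II chains themselves, chosen after their values were seen, were nearly confined to ACKR1-positive barcodes among the chosen ones. The gene listed as HLA-DRA had 188 and 1202 UMIs in ACKR1-positive barcodes and 0 and 1 in MMRN1-only barcodes, a 300-fold ratio with a counting interval of 53.7 to 11851. SLA-DQB1 had 162 and 1388 UMIs in ACKR1-positive barcodes and 0 and 3 in MMRN1-only barcodes. Other endothelial barcodes held HLA-DRA at 1593 and 1027 CPM, against 912 and 790 CPM in ACKR1-positive barcodes.

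Growth-factor receptors and ligands also differed between the kinds. FLT1, the VEGF receptor 1 gene, had 26 UMIs in GDSS and 216 in Yorkshire ACKR1-positive barcodes and 2 and 0 in MMRN1-only barcodes, a 26.1-fold ratio with a counting interval of 7.15 to 217. KDR, the VEGF receptor 2 gene, was at 92.2 and 94.0 CPM in ACKR1-positive and 84.2 and 169 CPM in MMRN1-only barcodes and was not called between them (log2 ratio -0.42 ± 0.35, edgeR adjusted p = 0.57). VEGFC, the growth factor of lymphatic vessels, had 17 and 148 UMIs in ACKR1-positive barcodes and 0 in MMRN1-only barcodes, and was at least 11.9-fold higher in the ACKR1-positive ones, whereas its receptor FLT4 had the opposite order. ANGPT2, a TIE2 ligand, was at 14.6 and 12.5 CPM in ACKR1-positive barcodes and 210 and 172 CPM in MMRN1-only barcodes (log2 ratio -3.52 ± 0.46, edgeR adjusted p = 1.8e-12), and TEK, the TIE2 gene, was at 150 and 202 CPM in ACKR1-positive barcodes and 0 and 24.6 CPM in MMRN1-only barcodes (log2 ratio 3.46 ± 0.48, adjusted p = 3.1e-11). Both NOS3, the endothelial nitric oxide synthase, and NOSTRIN, which binds it, had 0 UMIs in MMRN1-only barcodes and were at least 13.3-fold and 7.55-fold higher in ACKR1-positive barcodes. Other endothelial barcodes also exceeded MMRN1-only ones, at least 11.4-fold for NOS3, 9.37-fold for NOSTRIN and 5.71-fold for VEGFC. For FLT1 that ratio was 32.4-fold, with a counting interval of 8.95 to 268.

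Junction and matrix genes made a mixed group. CLDN11, a tight-junction claudin, was at 4.85 CPM in GDSS and 9.20 in Yorkshire ACKR1-positive barcodes, 210 and 289 CPM in MMRN1-only barcodes, and 16.2 and 23.8 CPM in other endothelial barcodes (log2 ratio between the kinds -4.73 ± 0.43, edgeR adjusted p = 1.4e-25). ESAM, an adhesion molecule of blood vessel junctions, was at 282 and 308 CPM in ACKR1-positive barcodes and 0 and 30.7 CPM in MMRN1-only barcodes (log2 ratio 3.82 ± 0.46, edgeR adjusted p = 1.2e-14), and VE-cadherin (CDH5) was at 112 and 191 CPM in ACKR1-positive and 147 and 123 CPM in MMRN1-only barcodes and was not called. The laminin chain LAMA4 was at 53.4 and 24.3 CPM in ACKR1-positive barcodes and 189 and 274 CPM in MMRN1-only barcodes, and the matrix glycoprotein SPARC was at 801 and 509 CPM in ACKR1-positive and 126 and 83.0 CPM in MMRN1-only barcodes, with log2 ratios of -2.84 ± 0.36 and 2.88 ± 0.36 (edgeR adjusted p = 2.7e-13 and 5.4e-14). The BMP and TGF-beta list had 2 of 14 genes called higher and 6 lower in ACKR1-positive than in MMRN1-only barcodes (median log2 ratio -0.52). Those lower included TGFB1, the TGF-beta 1 gene, with 194 and 72.9 CPM in ACKR1-positive barcodes and 547 and 197 CPM in MMRN1-only barcodes. BMP6 was also called lower, although its log2 ratios were 0.21 in GDSS and -3.47 in Yorkshire. Immediate early and heat-shock genes, which can respond to tissue dissociation, had 9 of 15 called lower and 0 higher in ACKR1-positive than in MMRN1-only barcodes (median -0.72), and 8 of 15 called lower than in other endothelial barcodes. CRYAB is among those 9, with log2 ratios of -5.76 in GDSS and 1.75 in Yorkshire. The part of these genes in the other differences was not tested.

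The genes with the largest ratios between the kinds went beyond the lists. CYSLTR2, the cysteinyl leukotriene receptor 2, had 48 UMIs in GDSS and 558 in Yorkshire ACKR1-positive barcodes and 0 in MMRN1-only barcodes, and was at least 43.6-fold higher. It was also called higher than in other endothelial barcodes (log2 ratio 1.20 ± 0.28, edgeR adjusted p = 0.00044). HRH1, the histamine H1 receptor, was at 58.2 and 77.5 CPM in ACKR1-positive barcodes, 0 CPM in MMRN1-only barcodes, and 3.24 and 6.37 CPM in other endothelial barcodes (log2 ratio over other endothelial barcodes 3.79 ± 0.39, edgeR adjusted p = 5.9e-20). The adhesion receptors ADGRL4 and ADGRG6 and the secreted protein WFDC1 were at least 25.2-fold, 23.1-fold and 23.6-fold higher in ACKR1-positive than in MMRN1-only barcodes, with 0 UMIs in the MMRN1-only ones. ADGRL4 and WFDC1 were not particular to ACKR1-positive barcodes. In other endothelial barcodes they were at least 35.9-fold and 48.4-fold higher than in MMRN1-only barcodes. ADGRG6 was higher in ACKR1-positive than in other endothelial barcodes as well (log2 ratio 3.19 ± 0.31, edgeR adjusted p = 1.6e-21). CYP1B1, a cytochrome P450, was at 544 and 369 CPM in ACKR1-positive barcodes, 0 and 30.7 CPM in MMRN1-only barcodes, and 17.3 and 45.8 CPM in other endothelial barcodes.

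On the MMRN1-only side, ACP5, the tartrate-resistant acid phosphatase, had 1 UMI in GDSS and 1 in Yorkshire ACKR1-positive barcodes and 16 and 164 UMIs in MMRN1-only barcodes, a ratio of 0.0024 with a counting interval of 0.000288 to 0.00878. SCN3A, a voltage-gated sodium channel, had 0 UMIs in ACKR1-positive barcodes and 7 and 45 in MMRN1-only barcodes, at least 80.4-fold higher in the MMRN1-only ones, and the secretoglobin SCGB3A1 had 0 and 1 UMIs in ACKR1-positive and 15 and 40 in MMRN1-only barcodes. Some of these rankings rested on single barcodes. SCG3, a granin of secretory cells, had 34 and 158 UMIs in MMRN1-only barcodes, of which 1 barcode held 31 in GDSS and 1 barcode held 58.2% in Yorkshire. All 25 GDSS UMIs of S100A4, a calcium-binding protein, came from 1 barcode, and 27 of the 43 UMIs of TOP2A, a topoisomerase of dividing cells, came from 1 of 5 Yorkshire barcodes.

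Markers of other cell types did not all run one way. The summed level of 8 stromal genes was 371 CPM in GDSS and 515 in Yorkshire chosen barcodes, against 1028 and 641 CPM in other endothelial barcodes. The summed level of 9 macrophage genes was 35.5 and 37.9 CPM, against 574 and 50.4 CPM in other endothelial barcodes. The 12 genes ranked lowest between chosen and other endothelial barcodes included S100A12, S100A8, IL1R2, ACOD1 and CD53, which are known from leukocytes, and also ESM1, an endothelial gene, PKIB and LRRC36, each with 0 UMIs in the chosen barcodes. Without barcodes that had at least 2 leukocyte UMIs, 583 genes were called higher and 595 lower. The lymphocyte and neutrophil list stood at 110 and 160 CPM in chosen barcodes and 184 and 182 CPM in other endothelial barcodes. The chosen barcodes held 27 and 296 UMIs of its gene CD79A, a B-cell receptor component. Of the 8 genes of this list with a row, 6 were at 0 in GDSS and 7 in Yorkshire chosen barcodes. CD79A was not called between the kinds (log2 ratio 0.78 ± 0.35, edgeR adjusted p = 0.14). Whether its feature counts another transcript could not be checked. The 9 mural genes summed to 288 and 80.1 CPM in chosen barcodes and 277 and 142 CPM in other endothelial barcodes. The 5 tenocyte genes summed to 67.0 and 108 CPM in chosen barcodes, against 31.3 and 61.2 CPM in other endothelial barcodes, and THBS4, a matrix thrombospondin, was called higher (log2 ratio 1.05 ± 0.29, edgeR adjusted p = 0.0041). THBS4 had 15 and 192 UMIs in ACKR1-positive and 0 and 3 in MMRN1-only barcodes. Satellite-cell genes summed to 170 and 88.8 CPM in chosen barcodes and 368 and 250 CPM in other endothelial barcodes. Within the chosen barcodes they were at 43.7 and 80.8 CPM in ACKR1-positive and 716 and 126 CPM in MMRN1-only barcodes, where MYF5, a myogenic transcription factor, had all its 33 GDSS UMIs in 2 barcodes. Their part in the other differences was not tested.

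The chosen barcodes made up 0.260% of GDSS barcodes with at least 500 genes (95% Clopper-Pearson interval 0.176 to 0.371%) and 1.15% of Yorkshire barcodes (0.984 to 1.34%). With 1 library per breed the shares carry no test and the intervals cover counting error only. Measured within the endothelium, the order was not the same: chosen barcodes were 11.5% (7.89 to 16.0%) of 261 GDSS and 9.24% (7.94 to 10.7%) of 1786 Yorkshire endothelial barcodes, with intervals that overlap. After thinning to 1500 UMIs they were 3.39% and 4.67%. MMRN1-only barcodes were 26.7% (12.3 to 45.9%) of the chosen barcodes in GDSS and 25.5% (19.0 to 32.8%) in Yorkshire. A difference in the mix of the kinds was therefore not detectable with 30 and 165 barcodes.

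The last comparison set GDSS beside Yorkshire within the chosen barcodes, as ratios with exact 95% counting intervals and no test. The chemokine gene CCL2 and several TGF-beta pathway genes were higher in GDSS, while interferon-response genes and IL33 were lower. Of 4465 genes with at least 50 UMIs, 133 were at least 2-fold higher (2.98%) and 231 at least 2-fold lower (5.17%) in GDSS with an interval that left out 1, 8.15% in all. The GDSS sum came from 30 barcodes, and for several genes from very few of them. CCL2, the monocyte chemokine, had the largest ratio: 461 UMIs (1818 CPM) in GDSS and 220 UMIs (119 CPM) in Yorkshire, a 15.3-fold ratio (13.0 to 18). One barcode held 282 of the 461 UMIs, and without it CCL2 was 6.64-fold higher (5.42 to 8.13), against 1.55-fold in other endothelial barcodes. CCL2 was detected in 12 of 30 GDSS and 48 of 165 Yorkshire chosen barcodes. It was the only higher one of the 9 measured genes of the chemokine and cytokine list, of which IL33 and CCL21 were lower (median log2 ratio -0.66, against 0.64 in other endothelial barcodes).

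A further 3 of the largest ratios were carried by 1 barcode each. APOD, apolipoprotein D, was 12.7-fold higher in GDSS with 74 of its 75 UMIs in 1 barcode, and its ratio was 0.177 without it. CRYAB, a small heat-shock protein, was 8.68-fold higher with 142 of 168 UMIs in 1 MMRN1-only barcode, and 1.44-fold (0.909 to 2.20) without it. The smooth-muscle actin ACTA2 was 4.78-fold higher, and 1.02-fold without its top barcode. PLAU was 6.85-fold higher (5.12 to 9.16), and 2.37-fold without its top barcode. CD83, a surface protein of activated immune cells, was more evenly spread: it had 56 UMIs in 12 of 30 GDSS barcodes and 81 UMIs in 39 of 165 Yorkshire barcodes, a 5.04-fold ratio (3.52 to 7.17) that was 4.47-fold without the top barcode and 4-fold in other endothelial barcodes. HMOX1, heme oxygenase 1, was 4.25-fold higher (3.17 to 5.67), against 10.4-fold in other endothelial barcodes. Of 20 named genes higher in GDSS, 15 still passed the 2-fold rule without their top barcode, and of 21 named genes lower in GDSS, 17 did.

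**Figure D5:**
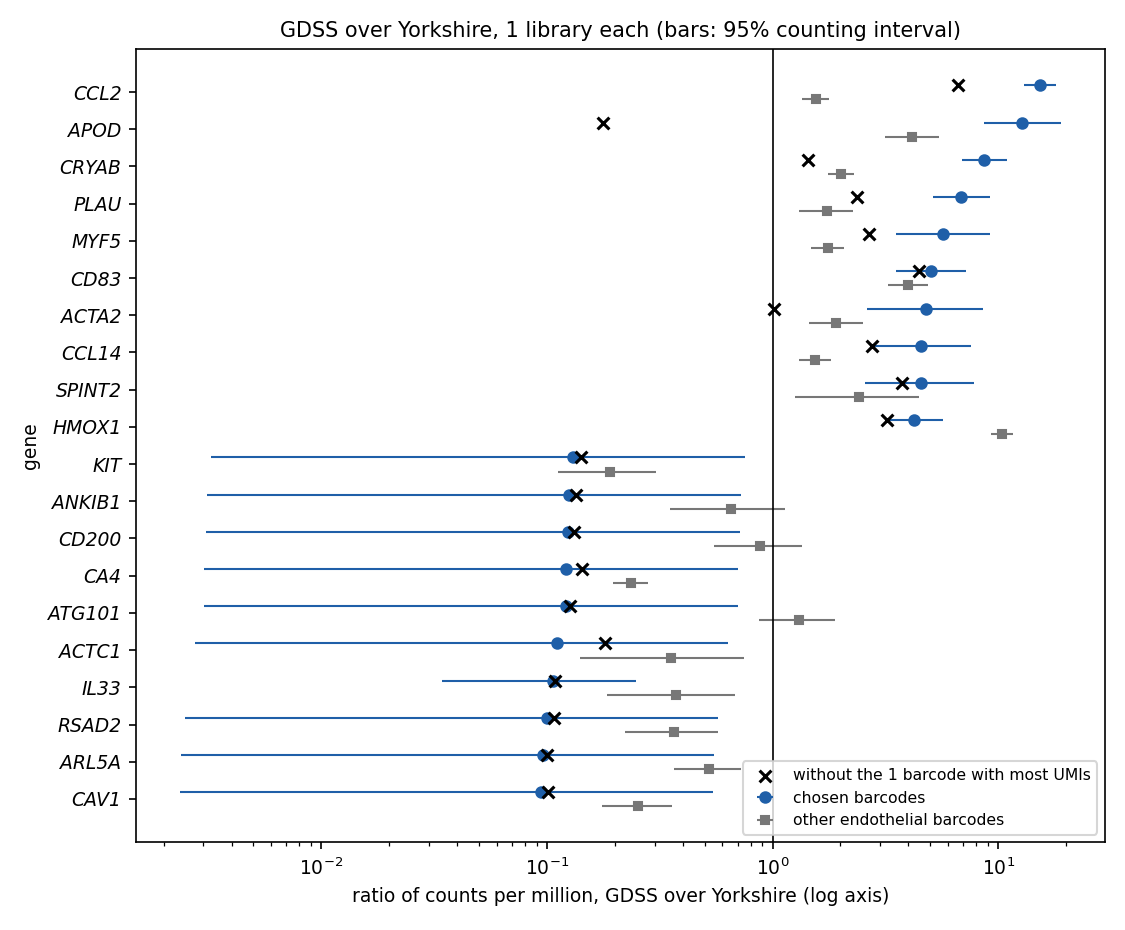
Ratio of CPM in GDSS over Yorkshire (log axis) for the 10 highest- and 10 lowest-ranked genes, in chosen barcodes (blue, with 95% counting intervals) and other endothelial barcodes (grey squares); crosses show the ratio without the barcode with most UMIs of the gene in the library where it is higher. CCL2 keeps a ratio of 6.64 without that barcode, while APOD, CRYAB and ACTA2 come to 0.177, 1.44 and 1.02.

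In the BMP and TGF-beta list, 4 of 10 measured genes were higher in GDSS and 0 lower, with a median log2 ratio of 0.37, against -0.54 in other endothelial barcodes and -0.05 over all genes. ENG, a TGF-beta co-receptor, had 477 CPM in GDSS and 214 in Yorkshire (2.23-fold, 1.81 to 2.74), and ID1, a BMP target, had 1653 and 681 CPM (2.43-fold, 2.17 to 2.71). In other endothelial barcodes the same ratios were 0.893 for ENG and 1.07 for ID1, and the difference between the classes was not tested. TGFB1 was 2.75-fold and SMAD7, an inhibitor of the pathway, 2.57-fold higher in GDSS.

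Interferon genes ran the other way, with 0 of 12 higher and 6 lower in GDSS. MX1 had 6 UMIs in GDSS and 248 in Yorkshire, so it was 5.67-fold higher in Yorkshire (2.57 to 15.6), and IFIT1 had 5 and 278 UMIs, 7.63-fold higher in Yorkshire (3.23 to 23.7). The median log2 ratio of the list was -1.04 in chosen barcodes and -1.29 in other endothelial barcodes, so the direction was not particular to the chosen ones. IL33 had 5 UMIs in GDSS and 344 in Yorkshire, 9.44-fold higher in Yorkshire (4.01 to 29.3), and STC1 had 73 and 1470 UMIs, 2.76-fold higher in Yorkshire (2.18 to 3.55). By the levels given above, both genes were also higher in Yorkshire in other endothelial barcodes. Among lymphatic genes PROX1 was 3.24-fold (1.35 to 10.2) and CCL21 2.10-fold (1.25 to 3.82) higher in Yorkshire, on 5 and 15 GDSS UMIs, and STAB1 was 3.22-fold higher in GDSS (1.88 to 5.36). Without its top barcode CCL21 was 1.92-fold higher in Yorkshire (1.14 to 3.49) and no longer passed the 2-fold rule.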

How the data were processed

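Per the labels' protocols, reverse transcription used 10x Genomics v2 chemistry and an Illumina NextSeq-500 read the libraries. The deposited matrices hold raw UMI counts per gene and barcode, made by the authors; Cell Ranger is named in the submitters' processing notes, and the file headers give software version 3.1.0. The notes also name R 3.5.2. No source used here gives the genome build. Every deposited barcode had at least 500 UMIs.

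UMIs were summed per class and library. Gene symbols came from the feature list for 14846 of 21301 features and from a name table for 680 more, and 258 of 281 listed genes had a row. The tests were run with edgeR 4.0.16 (quasi-likelihood, TMM factors, library as a block, genes with at least 30 UMIs over the 4 sums, Benjamini-Hochberg adjusted p under 0.05) in R 4.3.3, and the script was tested on simulated data. Each library gives 1 sum per class, so classes are paired by library, which leaves 1 residual degree of freedom. Breeds were compared with no test, by ratios of CPM with exact conditional 95% intervals over genes with at least 50 UMIs. Intervals and floors (3 counts for a count of 0) cover counting error only. Alternatives were DESeq2 1.42.0, other scaling and filters, other thresholds of the rule, thinning to 1500 UMIs, limits on mitochondrial UMIs and doublet scores, and each library or top barcode left out. Each kind against other endothelial barcodes was fitted with the main settings only. Scrublet's own threshold (scanpy 1.11.5) marked 0 barcodes and had not worked, so a score under 0.3 was an alternative. Python 3.11.15, numpy 2.4.6, scipy 1.17.1 and pandas 2.3.3 were used.

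The members and the gene lists were chosen with earlier results of these data known. Named genes were the rule genes and given markers, the 12 highest and 12 lowest genes of each tested comparison (at least 50 UMIs in the higher class and the same sign in both libraries), the 10 highest and 10 lowest between breeds, and up to 4 genes of each list with the largest ratios; ribosomal, mitochondrial, haemoglobin, sex-linked and class I and II genes stayed out of the rankings. Other listed genes that are named, and the class II genes, were chosen after their values were seen.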

Additional observations from a re-analysis of the deposited data

Results flagged for a closer look

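CRYAB, a small heat-shock protein, differed in direction between the libraries, although edgeR called it lower in ACKR1-positive than in MMRN1-only barcodes. ACKR1-positive over MMRN1-only barcodes had a CRYAB ratio of 0.0177 (95% counting interval 0.00897 to 0.0319) in GDSS and 3.55 (1.75 to 8.40) in Yorkshire. The difference between the libraries was not tested. In GDSS, 142 of the 156 CRYAB UMIs of the MMRN1-only barcodes (91.0%) were in 1 barcode.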

How the results depend on the processing

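Named genes kept their direction and their side of the threshold in 1227 of 1443 recomputed values against other endothelial barcodes and in 834 of 871 between the kinds. Genes called in neither fit count as kept, whatever their direction, and genes with no adjusted p in a setting are left out. Most of the losses came from 2 settings. Against other endothelial barcodes 36 of 108 named genes stayed on their side of the threshold without the replicate block and 56 of 93 with DESeq2. Between the kinds 90 of 93 and 55 of 83 did. The counts depended on the test. DESeq2 called 111 genes higher and 107 lower in chosen than in other endothelial barcodes, and 107 and 80 between the kinds. Without the replicate block, which pairs the classes by library, the counts were 22 and 14 against other endothelial barcodes and 370 and 216 between the kinds. After thinning to 1500 UMIs they were 147 and 146, and 132 and 83. With MMRN1-only barcodes alone 226 genes were called higher than in other endothelial barcodes. Between breeds, 18 genes were higher and 51 lower in GDSS after thinning, and 230 were higher with a minimum of 20 UMIs. The share of chosen barcodes was 0.0579% in GDSS and 0.510% in Yorkshire under the rule on thinned barcodes, and 0.173% in GDSS with at least 5 UMIs of ACKR1 and MMRN1.

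Directions against other endothelial barcodes turned mainly where the kinds differ. With ACKR1-positive barcodes alone the log2 ratios were -2.12 for LYVE1, -1.66 for TFPI, -0.44 for FLT4, -1.30 for CLDN11 and -3.28 for TOP2A. With MMRN1-only barcodes alone they were -1.46 for IL6, -2.74 for VCAM1, -0.95 for CYP1B1, -6.59 for HRH1, -0.15 for PLAT, -2.58 for STC1, -1.34 for VWF, -2.17 for IL1R1, -2.78 for TAP1 and -2.93 for THBS4; fitted values of genes at 0 UMIs, as HRH1, are no bound. Leaving out each library in turn gave lowest and highest log2 ratios of -1.49 and 0.046 for BST2 against other endothelial barcodes, and -0.53 and 4.69 for CA4, -3.47 and 0.21 for BMP6, and -5.76 and 1.75 for CRYAB between the kinds. APOD had a breed ratio of 0.177 without its top barcode. Except where barcodes were left out by kind or as a single barcode, the cause was not tested. Thinning, the leukocyte limit, the split by kind and the top-barcode values were chosen after seeing the data. The 8 GDSS MMRN1-only barcodes held 47511 UMIs, which limits the precision of their levels.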

Other observations

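Further genes differed between the kinds or from other endothelial barcodes. GPM6A, a membrane glycoprotein first known from neurons, was seen in 7 of 8 GDSS and 36 of 42 Yorkshire MMRN1-only barcodes, at 253 and 409 CPM, against 9.71 and 10.8 CPM in other endothelial barcodes (log2 ratio 4.76 ± 0.48, edgeR adjusted p = 1.5e-20). ACKR1-positive barcodes held 0 and 2 UMIs of GPM6A. The apelin receptor APLNR was seen in 12 of 22 GDSS and 60 of 123 Yorkshire ACKR1-positive barcodes and had 0 and 1 UMIs in MMRN1-only barcodes, a 40.3-fold ratio with a counting interval of 7.15 to 1602.

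COL18A1, the collagen that gives rise to endostatin, was higher in both kinds than in other endothelial barcodes. It was at 146 CPM in GDSS and 110 in Yorkshire ACKR1-positive barcodes, 400 and 231 CPM in MMRN1-only barcodes, and 55.0 and 53.3 CPM in other endothelial barcodes. Its log2 ratios over other endothelial barcodes were 1.24 ± 0.28 and 2.06 ± 0.40 (edgeR adjusted p = 0.00027 and 1.7e-05). SOX18, a transcription factor upstream of PROX1 in mouse embryos, was at 500 and 229 CPM in ACKR1-positive barcodes and 1894 and 600 CPM in MMRN1-only barcodes (log2 ratio -1.39 ± 0.27, edgeR adjusted p = 5.2e-06). The chemokine CXCL2 was at 1475 and 2508 CPM in ACKR1-positive barcodes, 968 and 655 CPM in MMRN1-only barcodes, and 4006 and 2449 CPM in other endothelial barcodes.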
